A study of Drosophila melanogaster with 4 samples.

Results

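Transcripts of voltage-gated and leak ion channels were compared between heads of day 30 Drosophila melanogaster that overexpressed lamin B and heads of their control siblings. The set held 33 genes for sodium, calcium, potassium, HCN (hyperpolarization-activated, cyclic nucleotide-gated) and sodium leak channels, auxiliary subunits included. They were chosen by symbol and grouped by ion or channel family. By their identifiers in the annotation, 32 of them matched a row among the 17753 genes of the authors' table. Ca-beta, the cytoplasmic auxiliary subunit of calcium channels, had no row under its annotated identifier and was not analysed here. All 32 were among the 11757 genes with an adjusted p-value.

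The overexpression group had the genotype Hsp70-Gal4/+; +/UAS-LamB.GFP, which joins a heat shock promoter driver to a transgene for GFP-tagged lamin B, and the control group was +/+; +/UAS-LamB.GFP. Both groups therefore carried the transgene, and no group carried the driver without it. Each group had 2 libraries of polyadenylated RNA from pooled heads. Separate cultures for the replicates are not stated in the labels, so p-values measure the spread between these samples only, which may be technical. The question is which transcripts had other levels under lamin B overexpression. Lam itself stood in the authors' deposited table at a log2 fold change of 1.04 (standard error, SE, 0.0801).

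Neurons fire when voltage-gated sodium channels open and repolarize through several families of potassium channel, while calcium channels admit the calcium that releases transmitter. Leak channels, open at rest, set how far the membrane sits from threshold. In flies, mutants of many of these genes were found by paralysis, leg shaking or altered sleep, and the gene names reflect this. In whole heads, fewer neurons and less RNA per neuron cannot be told apart.

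Levels, fold changes, SEs and p-values of single genes are the authors' own except where shrinkage is said to be undone, and positions are those of an Ensembl annotation of the BDGP6 build. The mean normalized count is a mean over the 4 libraries after scaling for depth, and values of single libraries are not analysed here. The log2 fold change is overexpression over control, shrunken towards 0 by the authors' fit, and the threshold for a call was an adjusted p-value under 0.05. A positive value means a higher level in the overexpression heads. Mean normalized counts summed to 33525800 over all genes.

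By the authors' deposited table, 5 of the 32 channel genes were called lower and 0 higher. Across all genes tested, 3.07% were called lower and 5.66% higher. Most channel genes were abundant, and among all genes with a mean of at least 1000 the lower calls were 312 of 4810, against 5 of 28 channel genes. The 5 were Ih, the HCN channel, qvr, a membrane-anchored regulator of the Shaker channel, Shal, an A-type potassium channel, stj, an auxiliary calcium channel subunit, and Irk2, an inward rectifier. The log2 fold change was below 0 for 28 of the 32, against 47.9% of all genes tested. The median over the 32 was -0.18, and over all genes tested 0.01. At an adjusted p under 0.1, where 4.24% of all genes were lower, no further channel gene joined the 5 lower calls. The same 5 were called after adjustment over genes with a mean of at least 100 (3.98% lower) or 500 (5.32% lower). At an adjusted p under 0.01, 2 calls were left, qvr and Ih, against 1.74% of all genes lower. Without adjustment, 10 channel genes had a p-value under 0.05 with a lower level and 0 with a higher one, where 7.48% and 12.6% of all genes did. The changes were small, from -0.36 for qvr to 0.19 for sand.

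Per kilobase of exon, qvr had the most abundant transcript of the 32 genes, at a mean normalized count of 3470 per kb. After it came stj at 1497 per kb, the calcium-activated potassium channel gene slo at 1467 per kb, and unc79 and unc80 at 1419 and 1410 per kb. The main neuronal sodium channel gene para stood at 385.6 per kb and Sh at 391.5 per kb, both in the lower part of the order. The exon length used here joins the exons of all annotated transcripts, 60 for para and 17 for Sh, so such genes are understated per length. The lowest were Irk3 at 225 per kb, sand at 82.0 per kb and Irk1 at 33.7 per kb. No spread over samples goes with these levels, so the order of close neighbours is uncertain.

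**Figure D1:**
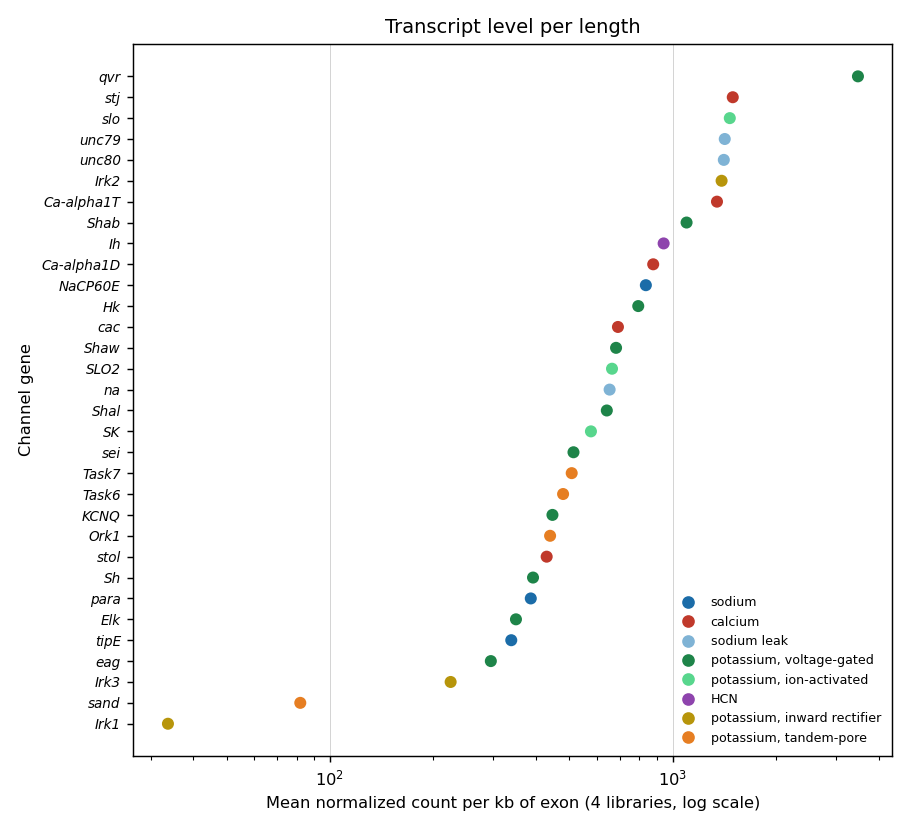
Mean normalized count per kilobase of exon (horizontal, log scale) for each of the 32 channel genes (vertical), each point a mean over 4 libraries and coloured by ion class. The qvr transcript lies highest at 3470 per kb and Irk1 lowest at 33.7 per kb.

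Sodium channel transcripts were not called. The pore-forming gene para (X, 16455027 to 16533096), which carries the action potential of fly neurons, had in the authors' deposited table a mean normalized count of 6289 and a log2 fold change of -0.25 with an SE of 0.149 (adjusted p = 0.361). Its relative NaCP60E stood in the authors' deposited table at -0.15 (SE 0.16) and the para auxiliary subunit tipE at -0.08 (SE 0.103). For tipE, 19% of the exon bases are shared with CG18675 on the same strand, so its reads could be split between both genes.

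The tipE homologues were on a list of other channels and channel partners. Of 19 listed genes in the table, 1 was called lower and 0 higher, with a median of -0.09. Over all genes tested, 3.07% were called lower and 5.66% higher. The called gene was Teh2 at -0.31 (SE 0.0786, adjusted p = 0.00242), and Teh1, Teh3 and Teh4 stood in the authors' deposited table at -0.27, -0.10 and -0.20. Teh2, Teh3, Teh4 and tipE are neighbours on 3L, and Teh3 lies within the span of Teh2.

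Among calcium channel genes, stj was the called member of the 5 matched. It encodes a large extracellular auxiliary subunit that brings the presynaptic channel to the active zone. This gene (2R, 13805794 to 13819571) had a mean normalized count of 9391 and fell by 0.22 in the authors' deposited table (SE 0.0745, adjusted p = 0.0454). With shrinkage undone, that is a normalized level of about 10134 in the controls and 8648 in the overexpression heads, a change of -14.7%. The other auxiliary subunit of this family, stol, had in the authors' deposited table the lowest value of the class, -0.29 (SE 0.159, adjusted p = 0.312).

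The pore-forming calcium channel genes were not called. The presynaptic channel gene cac stood in the authors' deposited table at -0.22 (SE 0.159), the T-type gene Ca-alpha1T at -0.19 (SE 0.158) and the L-type gene Ca-alpha1D at -0.14 (SE 0.16). All 3 had high mean normalized counts, from 8256 for cac to 17693 for Ca-alpha1T in the authors' deposited table, yet SEs above that of stj. The unequal spread is described after the ion classes.

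The sodium leak channel complex showed small values with low SEs. The channel gene na, which supports the resting excitability of clock neurons, stood in the authors' deposited table at -0.09 (SE 0.07), unc79 at -0.18 (SE 0.0851, adjusted p = 0.198) and unc80 at -0.07 (SE 0.063). For unc80 the 95% interval of the log2 fold change with shrinkage undone ran from -0.20 to 0.05, and changes beyond those bounds lay outside it. Mid1, which is needed for this channel to reach the membrane and carries the synonym Nlf-1, stood in the authors' deposited table at -0.30 (adjusted p = 0.0511).

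Voltage-gated potassium channels held 2 of the 5 calls, qvr and Shal, and all 10 genes of the class were below 0, with a median of -0.21. The qvr gene, also known as sleepless, encodes a small anchored protein that raises Shaker currents and is needed for normal sleep. It lies on 2R at 11442505 to 11451604 and had a mean normalized count of 17708. In the authors' deposited table qvr fell by 0.36 (SE 0.0986, adjusted p = 0.00618). With shrinkage undone the estimated levels were 20155 in controls and 15260 in overexpression heads, a change of -24.3%. Its shrunken log2 fold change was the lowest of the 32 genes. Undoing shrinkage gives 2 solutions for genes with high SEs, as described below. By the smaller solution, Hk, stol, slo and SK had lower values than the -0.40 of qvr. By the larger one, para at -0.80, Sh at -0.64, cac at -0.51 and Ca-alpha1T at -0.46 were lower as well.

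The other partner of Shaker, the cytoplasmic subunit Hk, had in the authors' deposited table the third lowest value, -0.34 (SE 0.154, adjusted p = 0.177). The Sh gene itself (X, 17924307 to 18063247) was not called, at -0.21 (SE 0.151; adjusted p = 0.504) by the authors' deposited table. Hk and qvr thus had close shrunken values with SEs of 0.154 and 0.0986, and of the pair qvr passed. With shrinkage undone they lay further apart, Hk at -0.53 or -0.93 and qvr at -0.40. Whether these genes differ from each other was not tested.

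Shal (3L, 19566851 to 19584568), whose A-type current acts in dendrites and cell bodies, had a mean normalized count of 2960. In the authors' deposited table it fell by 0.24 (SE 0.0818, adjusted p = 0.045), and with shrinkage undone the levels were 3221 in controls and 2699 in overexpression heads. The delayed rectifier genes Shab and Shaw stood in the authors' deposited table at -0.23 (SE 0.0963, adjusted p = 0.121) and -0.18 (SE 0.108, adjusted p = 0.354).

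The eag family, named for ether-induced leg shaking, gave no call. In the authors' deposited table eag stood at -0.18 (SE 0.16), sei at -0.10 (SE 0.104) and Elk at -0.21 (SE 0.102, adjusted p = 0.21). KCNQ, the fly gene for the slow, M-type potassium current, stood in the authors' deposited table at -0.13 (SE 0.092). For sei and KCNQ, 14.6% and 27.4% of exon bases lie under genes of the opposite strand, gammaSnap1 and asRNA:CR45133 with the largest share. The strand setting of the counting is not given in the sources used here, so reads of these pairs cannot be told apart.

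Channels opened by ions inside the cell were not called, although their values were of the size of those that were. The slo gene, for the large-conductance channel opened by calcium and voltage, had a mean normalized count of 14899 and stood in the authors' deposited table at -0.26 (SE 0.16, adjusted p = 0.399). SK, opened by calcium alone, stood in the authors' deposited table at -0.25 (SE 0.157, adjusted p = 0.414). SLO2, a slo relative, stood nearer 0, at -0.18, but with an SE of 0.0742 and an adjusted p of 0.119 in the authors' deposited table. Slob, which encodes a protein that binds the slo channel, stood in the authors' deposited table at -0.09 (SE 0.0571).

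Ih had the smallest adjusted p of the set. It encodes the HCN channel of the fly, which opens on hyperpolarization and carries a depolarizing current. Ih (2R, 14276130 to 14300095) had a mean normalized count of 11965 and fell by 0.36 in the authors' deposited table (SE 0.087, adjusted p = 0.00132). With shrinkage undone, its levels were 13564 in controls and 10366 in overexpression heads, a change of -23.6%.

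The inward rectifiers split in direction. Irk2 (3R, 23513617 to 23519445), the abundant member with a mean normalized count of 3468, fell by 0.23 in the authors' deposited table (SE 0.0792, adjusted p = 0.0406). Its estimated levels were 3768 in controls and 3168 in overexpression heads. The scarcer Irk1 and Irk3 stood in the authors' deposited table at 0.15 (SE 0.16) and 0.14 (SE 0.142), neither called. Irk1 shares 61% of its exon bases with other genes, CG46310 on its own strand with the largest share, so its value is uncertain.

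Inward rectifiers are also known from the Malpighian tubule, the fly's kidney. Of 4 tubule markers in the table, Uro and ZnT35C were called higher at 0.44 and 0.42, NaPi-III was called lower at -0.19, and CapaR stood in the authors' deposited table at -0.11. The first 2 were scarce, with mean normalized counts of 56.3 and 47.7 in the authors' deposited table, and their part in the Irk values was not tested. Over all genes tested, 5.66% were called higher and 3.07% lower.

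The tandem-pore potassium channels, which carry resting leak, were the class closest to 0. Ork1 stood in the authors' deposited table at 0.00 (SE 0.0913), Task7 at 0.04 (SE 0.122) and Task6 at -0.14 (SE 0.0853). The highest value of the 32 was that of sand, whose channel silences sleep-promoting neurons, at 0.19 (SE 0.16, adjusted p = 0.63) on a mean normalized count of 162.2 in the authors' deposited table. The class median was 0.02, against -0.22 for calcium channels and -0.21 for voltage-gated potassium channels. Differences between the ion classes were not tested.

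**Figure D2:**
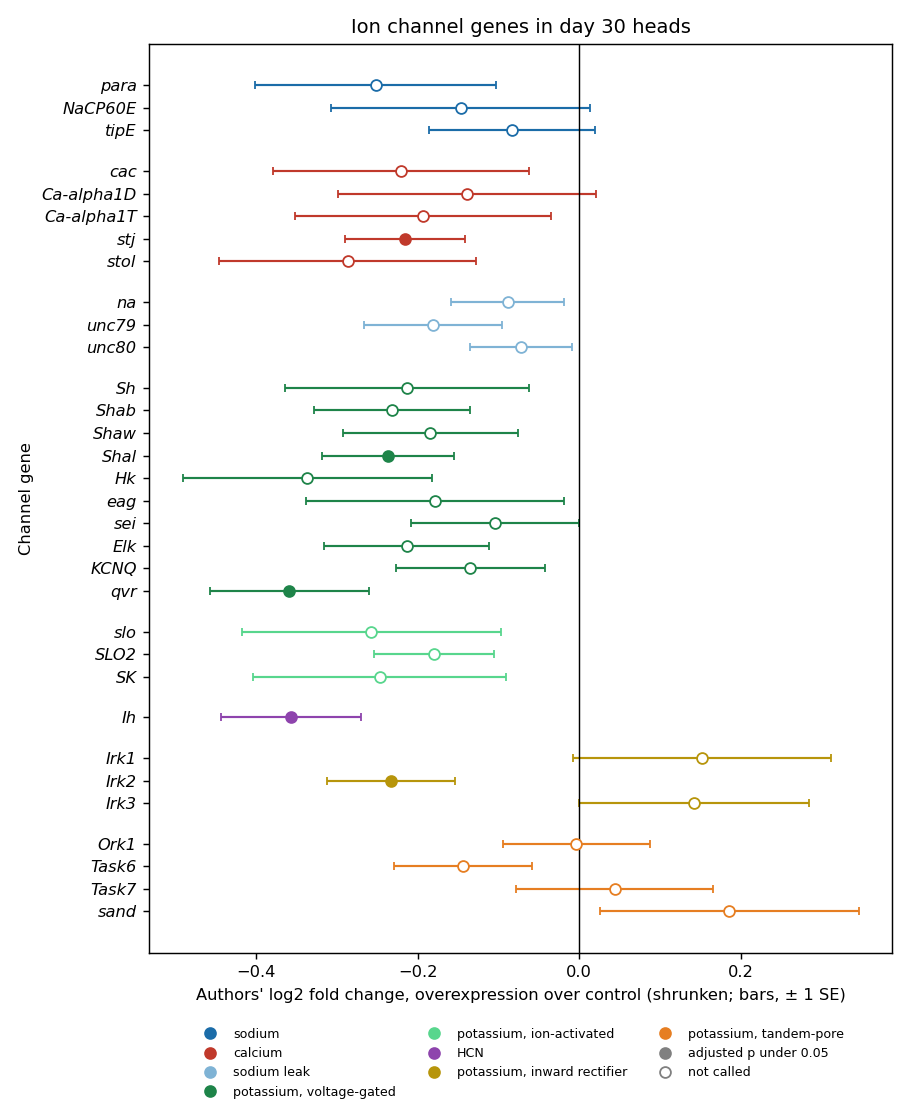
The authors' shrunken log2 fold change, overexpression over control (horizontal), for the 32 channel genes (vertical, grouped and coloured by ion class); bars are ± 1 SE and filled points have an adjusted p under 0.05. The 5 filled points are stj, Shal, qvr, Ih and Irk2, and the 4 genes above 0 are Irk1, Irk3, Task7 and sand.

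The 4 genes above 0 were also the 4 with the lowest mean normalized counts, from 162.2 for sand to 876.6 for Task7. All 28 genes with a mean of at least 1000 were below 0, where 59.1% of all genes with such a mean were. Their median was -0.20, against -0.03 for all genes with such a mean.

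The SEs of the channel genes fell into separate ranges. Of the 28 genes with a mean of at least 1000, 17 had in the authors' deposited table SEs from 0.063 to 0.108 and 11 had SEs from 0.149 to 0.16. The 11 were para, NaCP60E, cac, Ca-alpha1D, Ca-alpha1T, stol, Sh, Hk, eag, slo and SK. Among all 4810 genes with such a mean, 87 or 1.81% had an SE above 0.14, so these 11 channel genes made up 12.6% of them. The median SE of all 4810 genes was 0.0857.

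The 11 genes with a high SE were not closer to 0 than the rest. Their median log2 fold change was -0.22, and that of the other 17 was -0.18. All 5 calls came from the 17, and 0 from the 11. A missed threshold for para, cac, Sh or slo is thus not evidence of an unaltered level.

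The largest SE of the whole table was 0.16, a limit that shrinkage imposes. At that limit the SE without shrinkage is 0.32, and the fold change without shrinkage is about double the printed one. Below the limit, each SE has 2 solutions, a smaller and a larger one. For slo they lay close together, at -0.50 (SE 0.311) and -0.53 (SE 0.33). For para they were -0.37 (SE 0.218) and -0.80 (SE 0.471), and for Hk -0.53 (SE 0.241) and -0.93 (SE 0.427). If 2 libraries a group and the authors' kind of count model are assumed, the smaller solutions correspond to a coefficient of variation between libraries of 15.1% or more for the 11 genes, against 4.47% to 8.44% for the other 17. Which libraries differed is not analysed here, and the direction of each gene and its Wald test are the same under both solutions.

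**Figure D3:**
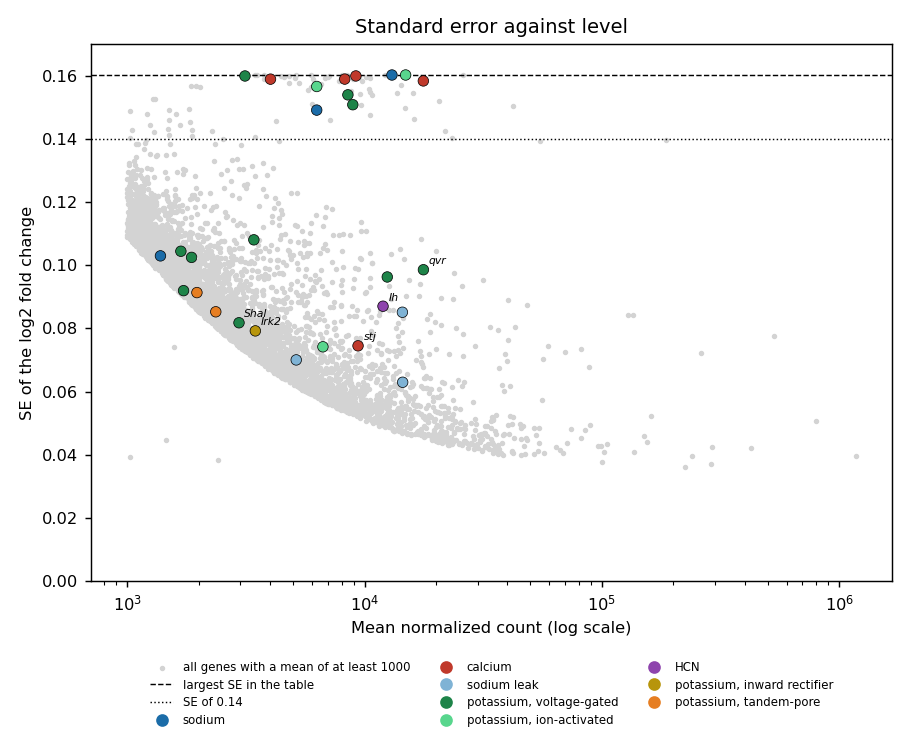
SE of the log2 fold change (vertical) against mean normalized count (horizontal, log scale) for the 4810 genes with a mean of at least 1000 (grey) and the 28 channel genes among them (coloured by class, called ones named); the dashed line is the largest SE of the table, 0.16, and the dotted line 0.14. The 11 channel genes above the dotted line lie apart from the other 17, which have SEs of at most 0.108.

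The genes with high SEs were long. Their genomic spans had a median of 54.5 kb and ran from 24.7 kb for Ca-alpha1D to 138.9 kb for Sh, against a median of 13.8 kb for the other 17. Some long genes had in the authors' deposited table lower SEs, since SLO2 at 94.8 kb and Shab at 64.6 kb had SEs of 0.0742 and 0.0963. Of the 9 channel genes on the X chromosome, 7 had a high SE, the exceptions being na and Ork1.

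The fold changes varied with length as well, across the whole table. Over 4751 protein-coding genes with a mean of at least 1000, the Spearman correlation of span and log2 fold change was -0.37, given as a description since genes share the same libraries. The median went from 0.01 for genes under 5 kb to -0.07 at 10 to 20 kb, -0.14 at 40 to 80 kb and -0.20 over 80 kb. In that longest class 95.2% of 104 genes were below 0, and in the shortest 46% of 2373. Lower calls made up 3.62% of genes under 5 kb, 6.31% at 5 to 10 kb and 11.2% at 10 to 20 kb. The share did not rise steadily above that, at 11.2% at 20 to 40 kb, 8.56% at 40 to 80 kb and 17.3% over 80 kb. At 20 kb or more, 85 of 762 genes and 1 of 16 channel genes were called lower. Of the 16 shorter channel genes, some with means under 1000, 4 were called lower. The shares given above for classes under 20 kb ran from 3.62% to 11.2%. The share of genes with an SE above 0.14 went from 0.379% under 5 kb to 15.4% over 80 kb.

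Set against the median of protein-coding genes in their own span class, 23 of the 32 channel genes were lower, and their median difference was -0.072 in place of -0.18. By shrunken values, the called genes stood furthest below their class with Hk. The differences were -0.32 for qvr, -0.26 for Ih, -0.24 for Hk, -0.20 for Irk2, -0.16 for Shal and -0.14 for stj. Between the last pair lay stol at -0.15. Shrinkage drew genes with high SEs further towards 0. With it undone, slo went from -0.26 to -0.50 or -0.53, and stj from -0.22 to -0.23. This order was not made with shrinkage undone. The genes nearest their class median were KCNQ, unc80, Ca-alpha1T, na, Sh and SLO2, the last at 0.018 above it. KCNQ, unc80, Ca-alpha1T, SLO2 and Ork1 were below 0 but above the median of their class. The part of gene length, or of anything that goes with it, in the channel values was not tested.

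**Figure D4:**
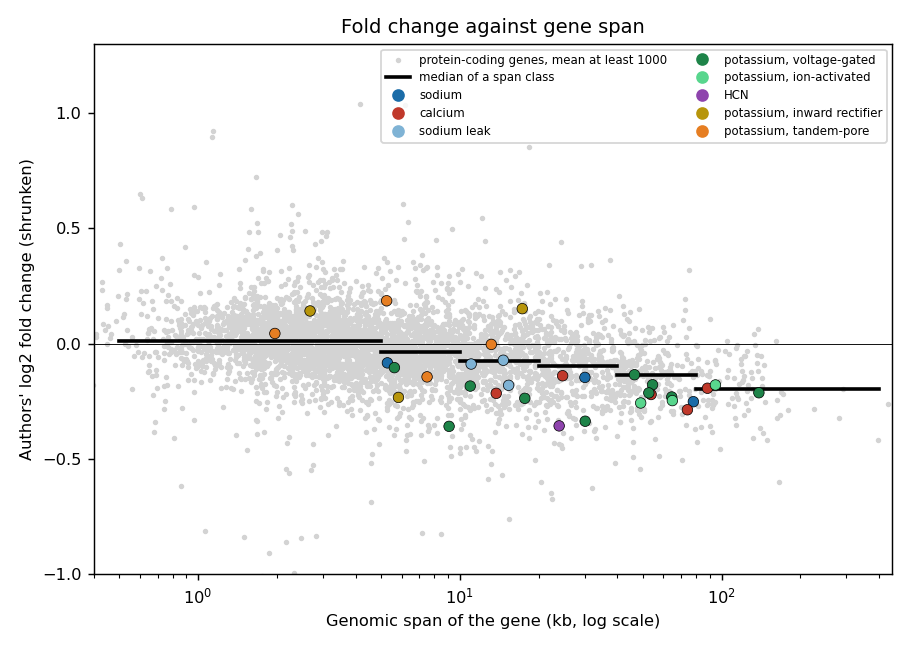
The authors' shrunken log2 fold change (vertical) against genomic span in kb (horizontal, log scale) for 4751 protein-coding genes with a mean of at least 1000 (grey) and the 32 channel genes (coloured by class); black bars are medians of 6 span classes. The class medians go from 0.01 under 5 kb to -0.20 over 80 kb, and most channel genes lie below them; 16 genes lie outside the plotted range of fold change.

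Ion pumps and exchangers, which restore the gradients that channels use, were lower where called. Among all genes with a mean of at least 1000, 312 of 4810 were called lower. Of the 13 pumps and exchangers 4 were called lower and 0 higher, with a median of -0.16. These were Nhe3 at -0.33 and Nhe2 at -0.29, both sodium/proton exchangers, and Atpalpha at -0.25 (SE 0.0677, adjusted p = 0.00478) and nrv3 at -0.46 (SE 0.142, adjusted p = 0.0184), a catalytic and an auxiliary subunit of the sodium/potassium pump, in the authors' deposited table.

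RNA-binding proteins that act on channel transcripts were below 0 in 9 of 9 cases, with a median of -0.30. Called lower were 3 of them, and none were called higher, where 312 of 4810 genes with a mean of at least 1000 were lower. The spans of the 9 genes ran from 5922 to 281494 bases, with a median of 45.9 kb. At 5 to 10 kb, 64.2% of protein-coding genes with such a mean were below 0, with a median of -0.04. Over 80 kb it was 95.2%, with a median of -0.20. Adar, the enzyme that edits adenosines in para, cac, Sh and other channel transcripts, fell by 0.30 in the authors' deposited table (SE 0.101, adjusted p = 0.0344). The helicase gene mle, needed for correct splicing of para, fell by 0.30 in the authors' deposited table (SE 0.0607, adjusted p = 4.27e-05). Rbfox1, a splicing regulator, fell by 0.32 in the authors' deposited table (SE 0.0934, adjusted p = 0.0107).

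Neuronal markers lay on the same side of 0 as most channel genes. All 18 neuronal markers were below 0, with a median of -0.22, and 3 were called lower, cpx at -0.44, elav at -0.34 and Snap25 at -0.28, in the authors' deposited table. Photoreceptors use Sh and Shab, and their marker list had 8 of 16 called lower and a median of -0.15. Of all 4810 genes with a mean of at least 1000, 312 were called lower and 213 higher. The median of 12 glial genes was -0.09. For the 2 that were called, the authors' deposited table gave 0.28 for Gli, higher, and -0.23 for axo, lower.

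Most muscle markers went the other way, with 5 of 12 called higher, 0 lower and a median of 0.15. Those called included Prm at 0.44 and Mlp84B at 0.33 in the authors' deposited table. Below 0 were 2 of the 12, bt at -0.14 and sls at -0.13, neither called. Muscle also uses slo, Sh, Shab and Ca-alpha1D. Over all genes tested, 5.66% were called higher and 3.07% lower. Gut markers had 5 of 9 called higher and 1 lower, and testis and accessory gland markers had 8 of 9 tested called higher and 0 lower. Their mean normalized counts summed to 13018 and 1065, where the neuronal markers summed to 260864. Of the gut sum, 11240 came from Amy-p, the gut marker called lower, at -0.19 in the authors' deposited table. The lists also differed in gene span. Median spans were 19.5 kb for neuronal, 6.99 kb for muscle, 0.964 kb for gut and 0.67 kb for testis and accessory gland markers. The part of gene span in the list values was not tested, nor was that of cell composition in the channel values.

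**Figure D5:**
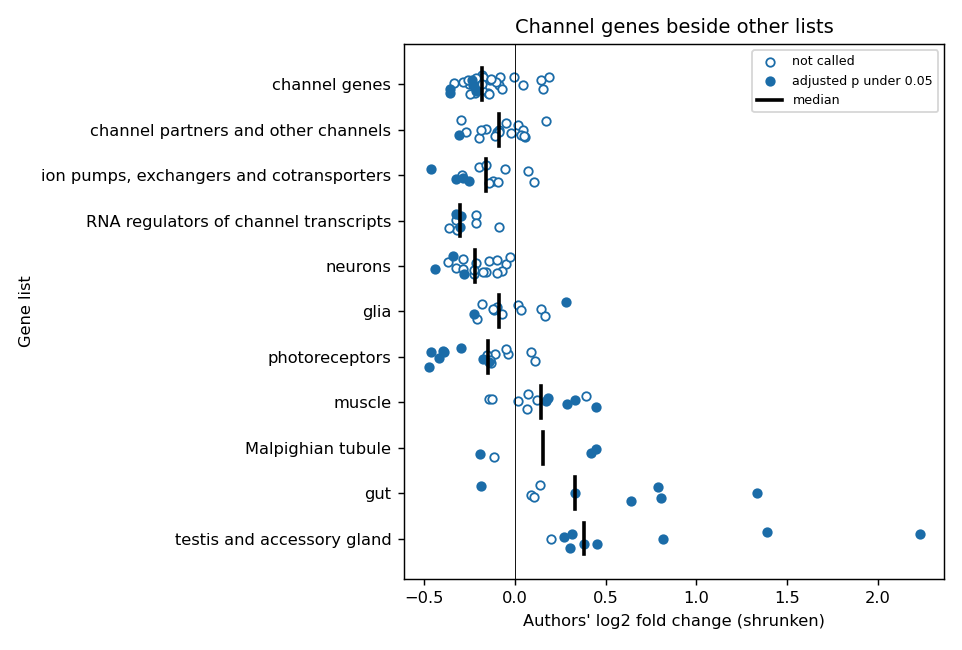
The authors' shrunken log2 fold change (horizontal) of each gene in the channel set and in 10 other lists (vertical); filled points have an adjusted p under 0.05 and black bars are list medians. Channel genes, pumps, RNA regulators and neuronal markers have medians from -0.30 to -0.16, and muscle, tubule, gut and testis lists have medians from 0.15 to 0.38.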

How the data were processed

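Oligo-dT enriched RNA was sequenced, per the labels' protocols. STAR 2.5, HTSeq, DESeq2 1.22.1, DESeq and the build BDGP6 are named, without roles, per the submitters' processing notes; annotation release, strand setting and filters: not given in the sources used here. Work began from the authors' deposited comparison of 17753 genes. Its mean signal, the authors' deposited mean normalized count, covers the 4 libraries. The log2 fold change the authors deposited is shrunken and has an SE. The authors' deposited Wald score is their quotient, and the p-value deposited with it has a Benjamini-Hochberg adjusted form. A second deposited table names no groups and was not used. The planned count test was not possible without counts, so the authors' Wald test stood in, as the design allowed.

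Direction came from the order of groups in the table's name. Shrinkage was undone from the SE with a constant of 9.73 set by the largest SE, and members with an SE of at most 0.12 were given the smaller solution. The relation was checked on 335 low genes whose whole reads were recovered, where the median absolute difference from the log2 ratio of reads was 0.0205 for the larger solution and 0.441 for the smaller. The smaller solution was thus not checked there. For the 17 members given it, the larger one would need a coefficient of variation between libraries of 57.3% or more. Size factors recovered there were 1.15 and 1.10 for overexpression libraries and 1.09 and 0.729 for controls. The scripts were tested on simulated data. Positions, spans and exon lengths came from an Ensembl annotation of BDGP6, which held 17626 of the identifiers.

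Members and lists were chosen with earlier results of these data known. All members are named. Genes named from the other lists were called (up to 8 a list by smallest p), with some exceptions. Teh1, Teh3, Teh4, Mid1, Slob, CapaR, Gad1, nSyb, bt and sls were chosen after their values were seen. From the lists, 2 identifiers entered in error, 2 without a row and 1 that is itself a member were left out. Python 3.11.15, numpy 2.4.6, pandas 2.3.3 and matplotlib 3.10.9 were used.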

Additional observations from a re-analysis of the deposited data

How the results depend on the processing

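No channel gene joined the 5 lower calls at an adjusted p under 0.1, a threshold at which those 5 could not be lost. The same 5 were called when adjusted again over genes with means of at least 100 or 500. At an adjusted p under 0.01, 2 remained, qvr and Ih, with 0 calcium, 1 voltage-gated potassium and 0 inward rectifier calls. There 2 pump and 1 RNA regulator calls were left. At an adjusted p under 0.1 there were 2 calls of channel partners and 5 of RNA regulators, and 2 of channel partners with a mean of at least 500. The median log2 fold change of the channel genes was -0.25 with shrinkage undone and -0.072 relative to genes of like span, an alternative chosen after seeing the data. Thresholds, filters on the mean and undone shrinkage cannot change the sign of a member, so they do not test its direction. Relative to genes of like span 23 members were lower, where 28 were below 0.

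Other normalizations, count tests and leaving out single libraries rest on counts of single libraries and were not run. Whole reads were not recovered for members, whose means all exceed 100. No paired analysis was possible because the table carries no values per replicate. With 2 libraries a group, the SE of 11 abundant members limits calls.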
